A study of Rattus norvegicus with 6 samples.

Results

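The genes described here are 39 genes of the skeletal muscle sarcomere and of the calcium release, energy supply and transcriptional control of muscle fibres, chosen by name from the 37203 genes of a count table of rat alveolar tissue. All 39 were found in the table. The tissue, the part of the jawbone that holds the teeth, was sequenced to compare orthodontic tooth movement with and without corticision, a surgical cut through the cortical bone. There were 3 case libraries, titled 5, 6 and 9, whose source label is tooth movement without corticision. There were 3 control libraries, titled 5, 6 and 10, whose source label is tooth movement with corticision. Titles and source labels point opposite ways if case is taken to mean operated, and the labels do not settle it. Groups are therefore named by their titles, and each difference is that of case less control. Teeth were moved in both groups. The sources used here do not give strain, sex, age, time of sampling or number of animals. Nothing says that each library is a different rat, so the p-values reflect the spread among these libraries only, and that spread may be technical.

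Striated muscle contracts when thick filaments of myosin pull on thin filaments of actin between the Z discs that bound each sarcomere. Nerve impulses reach the calcium channels of the fibre membrane, calcium leaves the sarcoplasmic reticulum, and troponin and tropomyosin on the thin filament then let myosin bind. Fast and slow fibres use different genes for myosin heavy and light chains, troponins and the calcium pump, so that the isoforms present tell which fibres contributed RNA. The muscles of mastication attach to the jawbone, and muscle RNA in a jaw sample can come from fibres that were taken with the bone. In bulk RNA, fewer fibres and less RNA per fibre cannot be told apart.

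Muscle RNA was a small and very uneven part of these libraries, and its amount differed widely between libraries of the same group. The summed level of the 39 members was 413, 842 and 2384 CPM (counts scaled to 1000000 per library, with TMM library sizes) in case 5, 6 and 9, against 164, 2111 and 2152 CPM in control 5, 6 and 10. As a share of all counts this ran from 0.0173% in control 5 (95% Wilson interval 0.0165 to 0.0181%) to 0.242% in case 9 (0.239 to 0.245%). Such intervals cover counting error only. Without Tpm2, Des and Ldb3, which cells outside skeletal muscle also use, the other 36 members summed to 244, 619 and 2049.5 CPM in case 5, 6 and 9, against 39.5, 1788 and 1789.5 CPM in control 5, 6 and 10. Of the 454 counts of these 36 members in control 5, Tnnc1 gave 155, Mybph 77 and Tnnt3 66. Case 9, control 6 and control 10 thus stood high, case 6 between, case 5 low and control 5 lowest, and the groups overlapped throughout. Of the 35 members with enough counts for a test, 31 were lowest in control 5 and 28 second lowest in case 5.

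**Figure D1:**
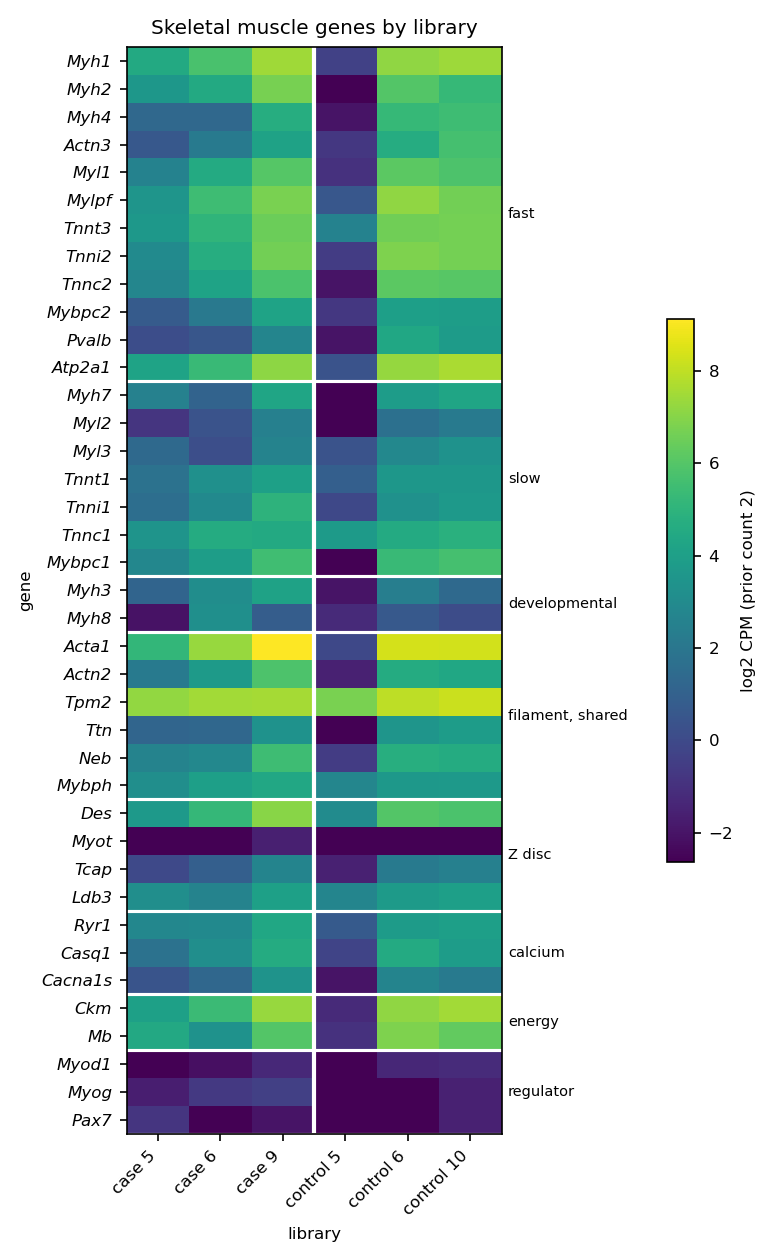
Log2 CPM (prior count 2, colour) of the 39 members (rows, by role) in the 6 libraries (columns, case left of control). Most rows are darkest in control 5 and next darkest in case 5, while Tpm2 is bright in every column and Myot and the 3 regulators are dark in all.

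Other tissues differed between the same libraries. Library totals lay between 10886303 and 14433740 counts. Bone genes were high in all 6, with Col1a1, the main chain of bone collagen, between 35969 CPM (case 9) and 74579 CPM (case 5). The 9 genes of an oral epithelium list summed to 40.6, 48.9 and 25.6 CPM in case 5, 6 and 9, against 3526, 34.7 and 20.2 CPM in control 5, 6 and 10. The 8 genes of a tooth-forming cell list summed to 459, 2.92 and 2.35 CPM in case 5, 6 and 9, against 89.3, 7.78 and 0.638 CPM in control 5, 6 and 10. The libraries poorest in muscle RNA, control 5 and case 5, were therefore also the richest in tooth-forming cell RNA, and control 5 alone held much epithelial RNA; the part of these tissues in the muscle values was not tested. Every gene of both lists had counts in control 5 and case 5. Smooth muscle genes summed to 451 to 483 CPM in case libraries and 493 to 748 CPM in control libraries and did not follow the skeletal muscle genes. Heart genes summed to 5.18 to 18.1 CPM in case libraries and 10.1 to 15.8 CPM in control libraries, and the heart hormone gene Nppa was at 0 in all 6, as were 2 to 4 of the 10 genes of that list in each library.

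**Figure D2:**
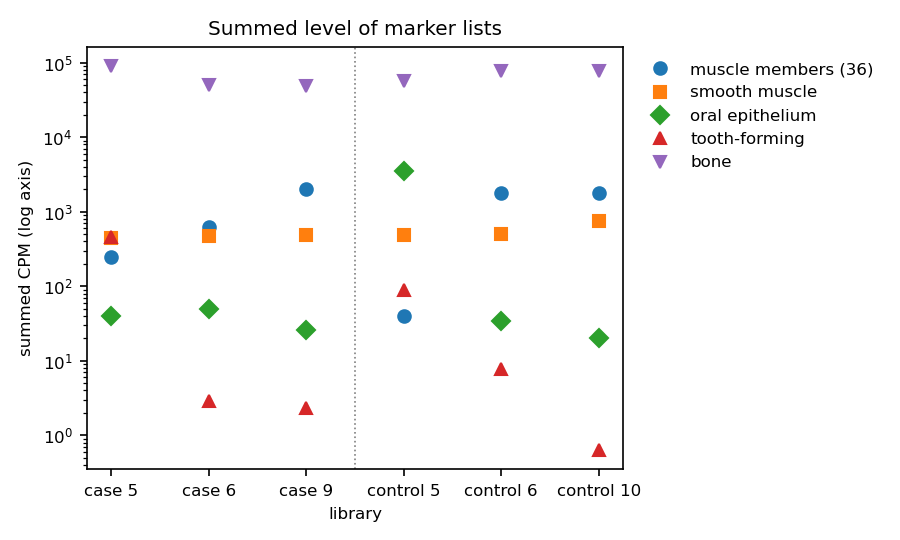
Summed CPM (log axis) of 36 muscle members (without Tpm2, Des and Ldb3) and of 4 marker lists in the 6 libraries, case left of control. The muscle sum is 39.5 CPM in control 5 and 244 CPM in case 5, whereas smooth muscle stays between 451 and 748 CPM, and the epithelial and tooth-forming sums are highest in control 5 and in case 5. In control 5 Tnnc1, Mybph and Tnnt3 gave 155, 77 and 66 of the 454 counts of the muscle members.

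The thick filament was represented by 6 myosin heavy chain genes, which are the motor proteins of the fibre and set its speed. Myh1, the heavy chain of fast 2X fibres, had 22.4, 54.0 and 175 CPM in case 5, 6 and 9, against 0.609, 144 and 170.4 CPM in control 5, 6 and 10. Myh2, that of fast 2A fibres, had 11.8, 22.8 and 107 CPM in case 5, 6 and 9, against 0, 62.7 and 37.9 CPM in control 5, 6 and 10. Myh4, that of the fastest 2B fibres, had 2.39, 2.39 and 25.7 CPM in case 5, 6 and 9, against 0.0871, 37.7 and 44.8 CPM in control 5, 6 and 10. Myh1 thus followed the summed level of the members, of which it is itself a part. Myh2 was highest in case 9, and Myh4 was higher in control 6 and control 10 than in any case library. Myh7, the slow heavy chain that the heart also uses, had 5.66, 1.99 and 19.5 CPM in case 5, 6 and 9, against 0, 14.2 and 19.5 CPM in control 5, 6 and 10. The heavy chains of developing muscle stood apart from both kinds: Myh3, the embryonic form, had 2.07, 8.50 and 17.3 CPM in case 5, 6 and 9, against 0.0871, 5.18 and 2.46 CPM in control 5, 6 and 10. Myh8, the perinatal form, had 0.0797, 9.29 and 1.59 CPM in case 5, 6 and 9, against 0.261, 1.41 and 0.912 CPM in control 5, 6 and 10, so that 140 of its counts came from case 6 alone.

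Because the amount of muscle RNA differed, the heavy chains were also set against each other within each library. These genes are near-identical copies in places, and reads could have been split between them. Myh1 led in every library, with 50.4%, 54.6% and 50.7% of the counts of the 6 heavy chain genes in case 5, 6 and 9, against 58.3%, 54.4% and 61.8% in control 5, 6 and 10. Myh2 held 26.6%, 23.0% and 30.8% in case 5, 6 and 9, against 0%, 23.6% and 13.7% in control 5, 6 and 10. Slow Myh7 held 12.7%, 2.01% and 5.62% in case 5, 6 and 9, against 0%, 5.35% and 7.07% in control 5, 6 and 10. Myh4 held 5.39% (95% Wilson interval 3.80 to 7.58%), 2.42% (1.75 to 3.33%) and 7.41% (6.65 to 8.25%) in case 5, 6 and 9, against 8.33% (1.49 to 35.4%), 14.2% (13.1 to 15.4%) and 16.2% (14.96 to 17.6%) in control 5, 6 and 10. The Myh4 share was thus higher in all 3 control libraries than in any case library, but in control 5 it rested on 1 of 12 counts. Embryonic Myh3 held 4.67%, 8.59% and 4.99% in case 5, 6 and 9, against 8.33%, 1.95% and 0.893% in control 5, 6 and 10, where the value of control 5 is again 1 count. Perinatal Myh8 held 9.40% in case 6 (8.02 to 10.98%) and 0.18% and 0.46% in case 5 and case 9, against 25%, 0.532% and 0.331% in control 5, 6 and 10. Control 5 could not be placed by its heavy chains at this depth, since 0 of 12 counts allows a Myh2 or Myh7 share of up to 24.2% by its Wilson interval.

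**Figure D3:**
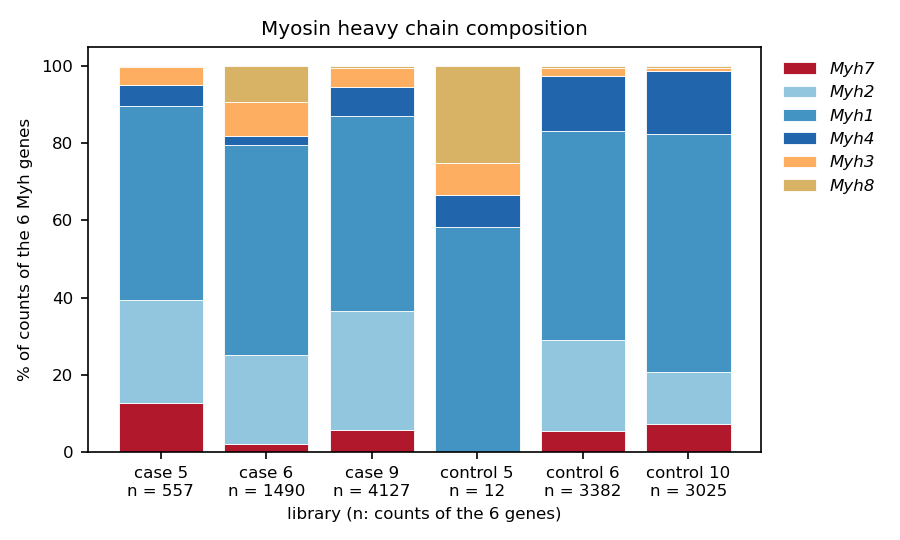
Percent of the counts of the 6 myosin heavy chain genes that each gene holds (stacked bars), by library, case left of control, with the number of counts under each bar. Myh4 (darkest blue) takes 14.2% and 16.2% in control 6 and control 10 and 2.42% to 7.41% in the case libraries; the bar of control 5 rests on 12 counts.

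The sequences before the starts of these genes are shown for the 3 adult fast heavy chains, whose shares moved against each other, and for Acta1, the member with the highest single value (561 CPM, case 9). They run 5′ to 3′ from 250 bases before the annotated start to 50 bases after it, from RefSeq on build GRCr8: Myh2 on the plus strand of chr10:52355489-52355788, Myh1 on the plus strand of chr10:52384662-52384961, Myh4 on the plus strand of chr10:52421898-52422197 and Acta1 on the minus strand of chr19:68784145-68784444. Capitals mark matches to CAGCTG (an E-box of the kind bound by MyoD and myogenin), the MEF2 site, the CArG box (the site of serum response factor), TATAAA and CATTCC (the core of the site of TEAD factors), on either strand.
Myh2: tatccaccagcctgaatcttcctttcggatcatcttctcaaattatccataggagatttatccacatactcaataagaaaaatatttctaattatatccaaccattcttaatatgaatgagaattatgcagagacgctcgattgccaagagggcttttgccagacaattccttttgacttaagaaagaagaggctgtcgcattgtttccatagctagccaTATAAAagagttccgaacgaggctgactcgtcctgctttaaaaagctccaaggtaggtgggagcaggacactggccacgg
Myh1: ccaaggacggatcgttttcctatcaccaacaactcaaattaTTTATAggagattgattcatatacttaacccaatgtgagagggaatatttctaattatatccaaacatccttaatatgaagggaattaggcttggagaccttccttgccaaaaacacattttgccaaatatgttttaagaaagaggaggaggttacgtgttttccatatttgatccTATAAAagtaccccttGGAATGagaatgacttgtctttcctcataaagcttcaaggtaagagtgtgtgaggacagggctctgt
Myh4: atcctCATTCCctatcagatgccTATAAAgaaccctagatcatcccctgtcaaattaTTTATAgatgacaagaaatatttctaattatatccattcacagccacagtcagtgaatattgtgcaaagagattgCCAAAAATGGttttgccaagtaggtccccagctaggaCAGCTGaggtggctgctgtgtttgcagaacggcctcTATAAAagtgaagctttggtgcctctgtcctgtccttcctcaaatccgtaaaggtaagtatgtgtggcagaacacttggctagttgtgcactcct
Acta1: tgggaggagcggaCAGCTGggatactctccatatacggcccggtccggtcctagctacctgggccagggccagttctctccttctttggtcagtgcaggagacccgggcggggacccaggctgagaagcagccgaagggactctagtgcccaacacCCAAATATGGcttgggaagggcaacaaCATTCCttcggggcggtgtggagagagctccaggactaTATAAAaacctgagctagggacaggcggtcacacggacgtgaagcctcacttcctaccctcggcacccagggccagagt
The windows of all 3 heavy chains hold TATAAA within 45 bases before the start, and Myh4 alone of the 3 also holds a CArG box and CAGCTG. The Acta1 window holds all of the motifs except the MEF2 site. A window was at hand for 31 of the 39 members. CAGCTG was found in 29.0% of those members and in 15.1% of all 33469 windows of the same length. TATAAA was found in 35.5% of members and 14.2% of all windows, and CATTCC in 25.8% of members and 14.2% of all windows. The CArG box was found in 12.9% of members (Myl3, Myh4, Ldb3 and Acta1) and 1.64% of all windows, and the MEF2 site in 6.45% (Ttn and Myl1) and 0.565%. A match is a run of letters and not a binding site shown here.

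Myosin light chains stiffen the lever arm of the motor, and each fast gene has a slow counterpart here. Mylpf, the fast regulatory light chain, had 11, 43.8 and 109 CPM in case 5, 6 and 9, against 1.31, 143 and 97.4 CPM in control 5, 6 and 10. Its slow counterpart Myl2 had 5, 17 and 65 counts in case 5, 6 and 9, against 0, 39 and 49 counts in control 5, 6 and 10. Fast Mylpf thus held 95.2% to 97.5% of the counts of this pair in case libraries and 95.6% to 97.9% in control 6 and control 10. In control 5 it held 100%, on 15 counts. Myl1, the fast essential light chain, had 5.82, 23.4 and 64.2 CPM in case 5, 6 and 9, against 0.348, 71.2 and 58.2 CPM in control 5, 6 and 10. Myl3, the slow one, had 2.47, 0.996 and 6.04 CPM in case 5, 6 and 9, against 1.13, 7.07 and 10.2 CPM in control 5, 6 and 10, and exceeded Myl1 in counts in control 5 only (13 against 4).

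The troponins, the calcium switch of the thin filament, mostly followed the other members across libraries, with Tnnc1 the exception. Tnni2, the fast inhibitory subunit, had 7.89, 25.8 and 99.4 CPM in case 5, 6 and 9, against 0.522, 114 and 101 CPM in control 5, 6 and 10. Slow Tnni1 had 2.87, 7.63 and 31.7 CPM in case 5, 6 and 9, against 0.783, 9.74 and 12.5 CPM in control 5, 6 and 10. Tnni1 was therefore highest in case 9 while Tnni2 was highest in control 6. Tnnt3, the fast tropomyosin-binding subunit, had 12.4, 33.1 and 91.0 CPM in case 5, 6 and 9, against 5.75, 95.6 and 103 CPM in control 5, 6 and 10, and slow Tnnt1 had 3.27, 9.63 and 16.4 CPM in case libraries, against 1.74, 11.8 and 11.9 CPM in control libraries in the same order. Fast Tnnc2, the calcium-binding subunit, had 6.54, 18.3 and 56.1 CPM in case 5, 6 and 9, against 0.0871, 71.5 and 67.2 CPM in control 5, 6 and 10. Tnnc1, the slow and cardiac form, varied far less, with 10.8, 24.2 and 22.9 CPM in case 5, 6 and 9, against 13.5, 23.0 and 27.9 CPM in control 5, 6 and 10. In control 5 it gave 155 counts, against 1 count of Tnnc2.

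Among the other filament and Z disc genes, Acta1, the actin of skeletal muscle, had 35.5, 157 and 561 CPM in case 5, 6 and 9, against 0.783, 330.4 and 322 CPM in control 5, 6 and 10. Tpm2, the beta chain of tropomyosin, which smooth muscle and other cells also make, stayed between 148 and 186 CPM in case libraries and between 110.1 and 290 CPM in control libraries. The giant spring protein Ttn had 2.15, 2.32 and 10.2 CPM in case 5, 6 and 9, against 0, 11.2 and 14.4 CPM in control 5, 6 and 10, and the thin filament ruler Neb 5.98, 6.97 and 44.6 CPM in case libraries, against 0.522, 26.7 and 24.2 CPM in control libraries. Both were thus lowest in control 5, and each had similar values in case 5 and case 6. Actn2, the alpha-actinin that cross-links actin at the Z disc of every fibre, had 4.38, 13.7 and 56.5 CPM in case 5, 6 and 9, against 0.174, 24.1 and 20.7 CPM in control 5, 6 and 10. Actn3, the alpha-actinin of fast fibres, had 1.36, 4.45 and 17.7 CPM in case 5, 6 and 9, against 0.435, 24.7 and 49.9 CPM in control 5, 6 and 10. Des, the intermediate filament protein of all muscle, had 12.6, 37.0 and 132 CPM in case 5, 6 and 9, against 8.01, 62.8 and 56.3 CPM in control 5, 6 and 10. Tcap, the titin cap, and Ldb3, a Z disc linker, ranged from 0.797 to 6.21 CPM and from 6.11 to 16.6 CPM in case libraries, against 0.174 to 5.47 CPM and 6.36 to 16.1 CPM in control libraries. The Z disc gene Myot was listed with 2 counts in case 9 and at 0 in the other 5 libraries, and was too low for the main test.

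The myosin-binding proteins brace the thick filament. Mybpc1, the slow form, had 6.86, 14.8 and 46.0 CPM in case 5, 6 and 9, against 0, 40.8 and 49.9 CPM in control 5, 6 and 10, and fast Mybpc2 had 1.51, 4.25 and 17.95 CPM in case libraries, against 0.435, 16.0 and 14.7 CPM in control libraries. Mybph, a shorter relative, varied least of the 3, with 8.77, 15.7 and 21.3 CPM in case 5, 6 and 9, against 6.70, 12.3 and 12.8 CPM in control 5, 6 and 10.

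Most genes of calcium handling and energy supply followed the filaments. Mb departed from them, being lower in case 6 than in case 5. Atp2a1, the calcium pump of fast fibres, had 17.9, 39.8 and 138 CPM in case 5, 6 and 9, against 1.13, 155 and 198 CPM in control 5, 6 and 10. Ryr1, the calcium release channel, had 6.78, 7.63 and 20.5 CPM in case 5, 6 and 9, against 1.48, 14.1 and 16.0 CPM in control 5, 6 and 10. The voltage sensor Cacna1s ran from 1.20 to 10.3 CPM in case libraries and 0.0871 to 6.28 CPM in control libraries, and the calcium store protein Casq1 from 3.27 to 24.0 CPM in case libraries and 0.696 to 23.2 CPM in control libraries. Pvalb, the calcium buffer of the fastest fibres, had 0.957, 1.26 and 6.38 CPM in case 5, 6 and 9, against 0.0871, 20.3 and 13.8 CPM in control 5, 6 and 10. As with Myh4 and Actn3, its values in control 6 and control 10 lay above every case library, and control 5 lay below. Ckm, the creatine kinase of muscle, had 16.4, 41.4 and 157 CPM in case 5, 6 and 9, against 0.261, 145 and 180.1 CPM in control 5, 6 and 10. Mb, the oxygen store myoglobin, had 21.8, 10.2 and 62.5 CPM in case 5, 6 and 9, against 0.348, 117 and 79.4 CPM in control 5, 6 and 10.

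The regulators of muscle formation were at the limit of detection. Myod1, a factor that commits cells to muscle, had 0, 1 and 3 counts in case 5, 6 and 9, against 0, 3 and 3 counts in control 5, 6 and 10. Myog, which drives fusion and differentiation, had 2, 7 and 7 counts in case 5, 6 and 9, against 0, 0 and 2 counts in control 5, 6 and 10. Pax7, the factor of muscle stem cells, had 5, 0 and 1 counts in case 5, 6 and 9, against 0, 0 and 2 counts in control 5, 6 and 10. Where a gene had 0 counts, up to 3 remain possible, which is 0.208 to 0.255 per 1000000 counts in case libraries and 0.219 to 0.276 in control libraries. Most of these values are not distinguishable from each other at this depth, and the filter for low counts removed all of these regulators before the main test. With no filter, the edgeR quasi-likelihood test gave Myog the smallest unadjusted p of the members, 0.060 (log2 fold change 2.61, adjusted p 0.909).

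The members differed in how low they were in control 5, the library that also held 3526 CPM of epithelial genes. Its CPM was under 5% of the median of the other 5 libraries for 24 of the 35 tested members and under 10% for 26, among them all 12 fast genes. It was over 25% for 4: Tpm2 at 59.3%, Tnnc1 at 58.6%, Mybph at 52.5% and Ldb3 at 47.0%. Myl3 (18.7%), Myh8 (18.5%), Tnnt1 (14.8%), Des (14.2%) and Ryr1 (10.5%) lay between, and where the remaining RNA of these genes came from was not tested. Over all tested genes with a median of at least 1 CPM in those 5 libraries, the median of this percentage was 101%. Across the 6 libraries the log2 CPM of a member correlated with the mean of the other members at a median Pearson r of 0.979, with r above 0.9 for 28 of 35 and the lowest, 0.462, for Myh8. This is a description over 6 libraries that differ in muscle RNA, and control 5 weighs on it. Without control 5, r ran from 0.257 for Myh8 and 0.426 for Myh3 to 0.999 for Mybpc2.

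The comparison between the groups asks whether muscle genes differed with corticision, case being labelled without it. The edgeR quasi-likelihood test called 0 of 35 members at a Benjamini-Hochberg adjusted p of 0.05, where 0% of all 16066 tested genes were called. At an unadjusted p under 0.05 it also gave 0 members, against 4.15% of all genes, and DESeq2 and limma-voom called 0 members, against 0.131% and 0% of all genes. The smallest unadjusted p was 0.127, for Myh3. In 0 of 35 members did the groups lie apart, against 8.47% of all genes. The log2 fold change was positive in 12 members and negative in 23, where it was positive in 46.3% of all genes. Its median was -0.32, against -0.02 for all genes, and it ran from -2.00 for Pvalb (SE 1.30) to 2.07 for Myh8 (SE 1.25). It was positive in 1 of 12 fast members (Myh2) with a median of -0.64, in 2 of 7 slow members with a median of -0.16, and in both developmental heavy chains. These signs depended on the method: limma-voom gave 26 positive and 9 negative members, with 7 of 12 fast members positive. The SE was above 1 for 26 of 35 members, against a median of 0.256 for all genes, so that for most members a change of 2-fold either way lay within the error. Acta1 shows this: its mean was 251 ± 275 CPM in the case group, against 218 ± 188 CPM for control (SD, n = 3 each), with a log2 fold change of 0.21 (SE 1.49).

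The direction of the muscle genes depended on single libraries. Without control 5 the log2 fold change was negative in 29 of 35 members with a median of -0.75, and 11 of 35 members, all lower in case, had separate groups, where 24.4% of all genes tested in that fit were separate and 13.5% were separate and lower in case. These were Myh4, Actn3, Myl3, Tnnt3, Tnni2, Tnnc2, Tpm2, Ttn, Pvalb, Atp2a1 and Mb. At an unadjusted p under 0.05, which 7.32% of all genes reached and 4.51% reached while lower in case, stood Tpm2 (log2 fold change -0.65, SE 0.18), Pvalb (-2.58, SE 0.76), Actn3 (-2.26, SE 0.88) and Mb (-1.64, SE 0.66), and none passed the adjustment over all genes, which 0.0121% of genes did. The smallest adjusted p of a member in edgeR was 0.507. Without case 5, 3 members (Myh3, Myh8 and Mybph) had separate groups, all higher in case, as were 14.4% of all genes. Without both libraries numbered 5 there were 13, of which the same 3 were higher and 10 lower in case, against 24.1% and 22.7% of all genes. Without case 9 the median log2 fold change was -1.46. It was 0.12 without case 5 or control 10, 0.06 without control 6 and -0.09 without case 6.

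**Figure D4:**
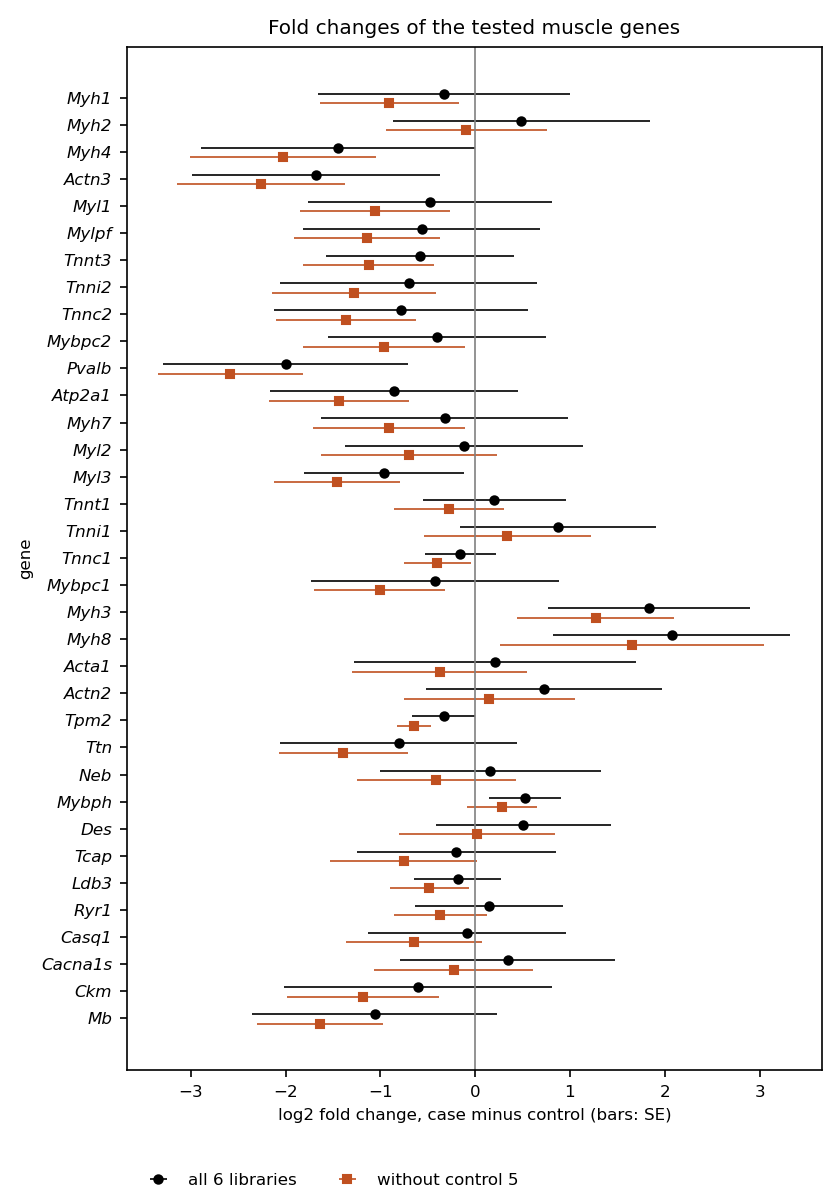
Log2 fold change, case minus control, of the 35 tested members (rows, by role) with all 6 libraries (black) and without control 5 (orange); bars are SE. The black bars of most members cross 0, and most values lie further left without control 5.

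Fast isoforms made up most of the counts of the fast and slow genes in 5 libraries. The 12 fast members held 76.0% (95% Wilson interval 73.9 to 77.9%), 81.9% (80.8 to 82.9%) and 86.0% (85.4 to 86.6%) of the counts of the 12 fast and 7 slow members in case 5, 6 and 9, against 38.6% (33.5 to 44.1%), 89.7% (89.2 to 90.2%) and 87.5% (86.9 to 88.1%) in control 5, 6 and 10. In control 5, 155 of 197 slow counts were of Tnnc1, and 66 of 124 fast counts were of Tnnt3. Without Pvalb, Tnnc1 and Mybpc1, which are also used outside their fibre type, the fast share was 87.3%, 92.7% and 91.9% in case 5, 6 and 9, against 74.5%, 95.3% and 94.1% in control 5, 6 and 10. Transcript lengths were not used, so these are shares of counts and can be compared between libraries, but they are not shares of molecules.

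For each of the 7 planned pairs of isoforms, the shares of case and control libraries overlapped. Of 3 pairs added after their values had been seen, the shares stood apart for Actn3 with Actn2 and for Myh4 with Myh2. Control 5 had only 7 counts and 1 count of these pairs. Its exact intervals, 29.0 to 96.3% and 2.5 to 100%, overlap those of case 5. Actn3 held 23.6% (95% exact interval 14.4 to 35.1%), 24.5% (19.5 to 30.0%) and 23.8% (21.1 to 26.8%) of the counts of Actn3 and Actn2 in case 5, 6 and 9, against 71.4% (29.0 to 96.3%, 7 counts), 50.6% (46.6 to 54.6%) and 70.7% (67.3 to 73.9%) in control 5, 6 and 10. The 3 case libraries lay within 1 percentage point of each other, and all 3 control libraries lay above them. That closeness is tighter than the counting error of case 5, whose 17 Actn3 and 55 Actn2 counts allow 14.4 to 35.1%. It therefore does not show a constant share. Myh4 held 16.9%, 9.50% and 19.4% of the counts of Myh4 and Myh2 in case 5, 6 and 9, against 100% (1 count), 37.6% and 54.2% in control 5, 6 and 10. Tnni2 held 73.3%, 77.1% and 75.8% of the pair with Tnni1 in case 5, 6 and 9, against 40.0% (15 counts), 92.2% and 88.9% in control 5, 6 and 10, so that the groups overlapped only through control 5. Tnnt3 with Tnnt1 behaved alike, at 79.2%, 77.4% and 84.8% in case 5, 6 and 9, against 76.7%, 89.0% and 89.7% in control 5, 6 and 10. Myh4 held 9.65%, 4.24% and 12.8% of the counts of Myh4 and Myh1 in case 5, 6 and 9, against 12.5% (8 counts), 20.7% and 20.8% in control 5, 6 and 10. In the other 5 pairs the groups overlapped also without control 5. The 3 adult fast heavy chains held 86.6% to 97.5% of counts with Myh7 in case and 92.8% to 94.5% in control 6 and control 10. Mybpc2 held 18.1% to 28.1% with Mybpc1 in case and 22.7% to 28.2% in control 6 and control 10. In control 5 both shares were 100%, on 8 heavy chain counts and 5 Mybpc2 counts.

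The mean share of Actn3 was 24.0 ± 0.43% in case and 64.2 ± 11.8% in control (SD, n = 3 each). The case SD is below the counting error of case 5. The control mean gives equal weight to control 5, which had 5 Actn3 and 2 Actn2 counts. For Myh4 against Myh2 no control mean is given, since control 5 had 1 count. These pairs, and Myh4 with Myh1, were added after their values had been seen, so their separation is a description with no p. For the other 7 pairs the two-sided exact permutation p ran from 0.2 to 1 (adjusted 0.7 to 1), where 3 libraries against 3 cannot give less than 0.1. That test also gives control 5 equal weight, however few its counts. Its smallest p was for Mybpc2 with Mybpc1, where Mybpc2 held 100% in control 5 on 5 counts. In control 6 and control 10 Mybpc2 held 28.2% and 22.7%.

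**Figure D5:**
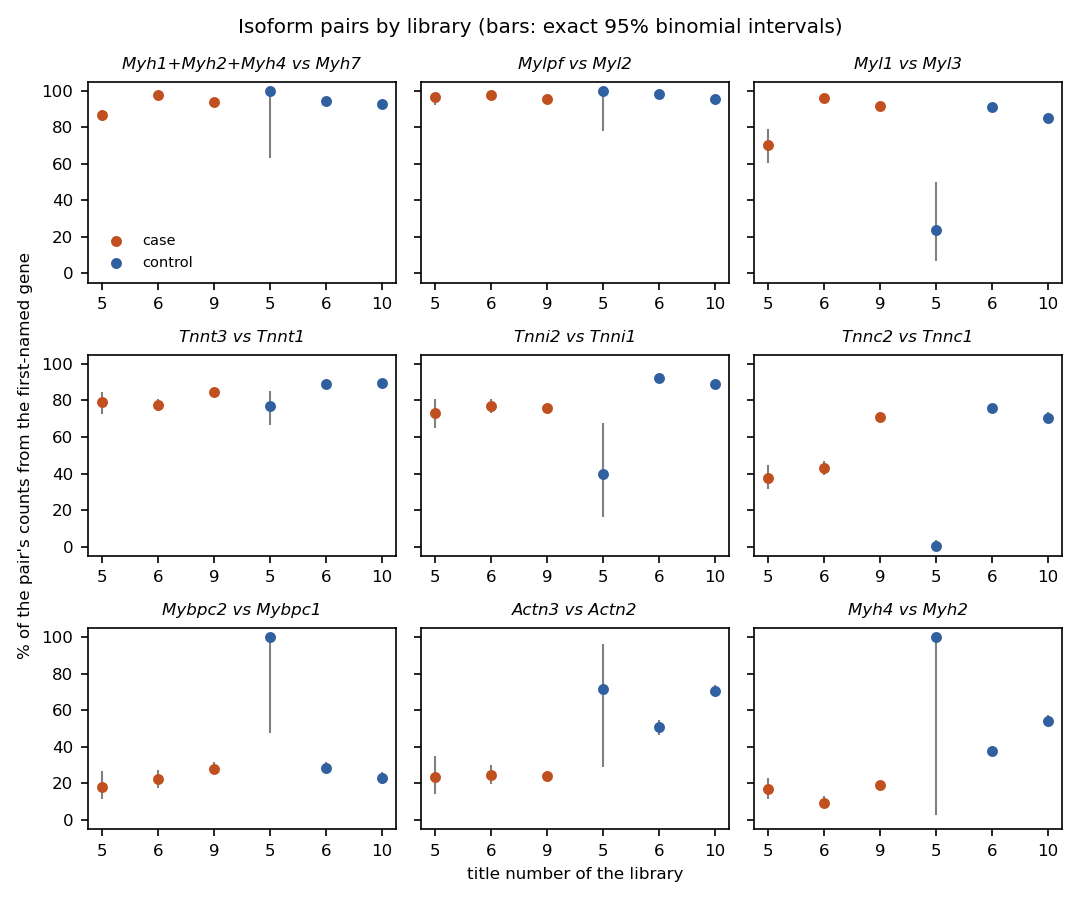
Percent of the counts of 9 isoform pairs that came from the first-named gene, by library (x axis: title number; case orange on the left, control blue on the right), with exact 95% binomial intervals. Actn3 against Actn2 and Myh4 against Myh2, pairs added after their values had been seen, take larger shares in the 3 control libraries than in the 3 case libraries. In control 5 these rest on 5 Actn3 and 2 Actn2 counts and on 1 Myh4 count, and its bars overlap those of case 5. The wide bars of control 5 reflect its few muscle counts.

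Set against the summed counts of the 36 members in each library, 17 of 35 members had separate shares in case and control when control 5, with 454 such counts, was left out. Of 12 fast genes, 4 overlapped, 7 (Myh4, Actn3, Tnnt3, Tnni2, Tnnc2, Pvalb and Atp2a1) took a smaller share in all 3 case libraries than in control 6 and control 10, and Myh2 took a larger one. Of 7 slow genes, 5 overlapped, Tnnt1 and Tnni1 took a larger share in case, and 0 took a smaller one. Of the 16 other members, 6 took a larger share in case (Myh3, Actn2, Mybph, Ryr1, Cacna1s and Des) and Ckm a smaller one. By the same measure 17.4% of all 16066 genes were higher in case and 0.181% lower, and 17.5% were separate in either direction. Case 5 and case 6 had the smallest muscle sums of these 5 libraries, which raises this share for any gene that does not follow the muscle sum. For the same reason such a gene can hardly come out lower in case, so the 0.181% is no baseline for the members. The shares of the 36 members are parts of the same sum, so that a larger share of some lowers that of others. These shares were not tested.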

How the data were processed

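Per the labels' protocols, RNA was extracted with TRIzol and sequenced as single-end Ion Total RNA-Seq libraries. The values are the authors' deposited counts, whole numbers for each gene symbol that show no normalization. No aligner, counting program, build, annotation or strand setting is given in the sources used here, so counts of near-identical myosin, actin and troponin copies and of overlapping genes are uncertain. Columns were matched to libraries by title.

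Of 37203 genes, filterByExpr kept 16066. These were scaled by TMM and tested by the edgeR 4.0.16 quasi-likelihood test (R 4.3.3), with group as the only term and Benjamini-Hochberg adjustment at 0.05. SE is the log2 fold change over the root of F. Every member was named, and non-members by likeness to the members or, on the further muscle lists, by highest mean CPM or smallest p. Members, lists and roles were chosen with earlier results of these data known. Fast and slow genes were to be compared per coding length, but lengths were not used here and counts were taken instead. Alternatives were other scalings and filters, DESeq2 1.42.0, limma-voom (limma 3.58.1), leaving out libraries, and the title number as a block. Promoter windows came from RefSeq on GRCr8.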

Additional observations from a re-analysis of the deposited data

How the results depend on the processing

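The count of members called was 0 in each of the 15 alternatives, and their smallest adjusted p ran from 0.249 to 1. Over all genes the count called was 0 except for 21 in DESeq2 and 2 without control 5 (range 0 to 2 with each library left out). Members with separate groups numbered 0 of 35, but 0 to 11 with each library left out and 13 without both libraries numbered 5. Over all genes the share with separate groups was 8.47%. It was 13.9% to 28.9% with each library left out and 46.8% without both libraries numbered 5. The members' median log2 fold change was positive in limma-voom (0.50), the block (0.09) and without case 5, control 6 or control 10, and otherwise ran from -1.46 to -0.09; the no-filter median left out Myot, whose control group was at 0. The fast share averaged 81.3% in case and 71.9% in control, but 88.6% in control without control 5, which turns the direction. Without Pvalb, Tnnc1 and Mybpc1 it averaged 90.7% in case and 88.0% in control. Of the 10 genes most like the members, 2 to 4 stayed with each library left out and 7 with a prior count of 0.5. Scaling by coding length was not run.

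Numbers 5 and 6 occur in both groups but nothing says they pair libraries; deviations from group means correlated at 0.38 and 0.14. With the title number as a block 0 members were called, 19 members were positive and 16 negative, and the log2 fold change turned for Myh1 (0.89), Myh7 (0.17), Myl1 (0.12), Mylpf (0.11), Tnnc2 (0.085), Mybpc1 (0.56), Ckm (0.57), Atp2a1 (0.32) and Des (-0.11). In limma-voom it turned for Myh1 (1.21), Myh7 (1.28), Myl1 (0.76), Myl2 (0.68), Mylpf (0.47), Tnni2 (0.50), Tnnc2 (1.08), Ttn (0.88), Mybpc1 (1.84), Ckm (1.21), Atp2a1 (0.46), Casq1 (0.45), Tcap (0.22) and Mb (0.56). It also turned for Casq1 with library totals (0.020) and Ryr1 without both libraries numbered 5 (-0.065). The cause was not tested.

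With each library left out, the range crossed 0 for Myh1 (-1.46 to 0.24), Myh2 (-0.95 to 1.33), Myh7 (-1.56 to 0.37), Myh8 (-0.060 to 2.67), Acta1 (-1.18 to 0.75), Actn2 (-0.72 to 1.27), Myl1 (-1.56 to 0.11), Myl2 (-1.69 to 0.61), Mylpf (-1.55 to 0.16), Tnnt1 (-0.39 to 0.64), Tnni1 (-0.54 to 1.44), Tnnc1 (-0.40 to 0.16), Neb (-1.40 to 0.65), Mybpc1 (-1.48 to 0.17), Mybpc2 (-1.84 to 0.11), Ckm (-1.91 to 0.0038), Ryr1 (-0.54 to 0.60), Casq1 (-1.07 to 0.70), Cacna1s (-1.03 to 1.03), Des (-0.77 to 1.015), Tcap (-1.38 to 0.39) and Ldb3 (-0.67 to 0.12). None of these values was called. Depth limits the 4 members that the main filter left out and every ratio in control 5.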

Other observations

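Of 88 genes on 5 further muscle lists (sarcomere, calcium and excitation, metabolism, membrane and junction, myogenic regulators), 67 could be tested and the edgeR quasi-likelihood test called 0, with 0 at an unadjusted p under 0.05 and 30 positive and 37 negative log2 fold changes. Their median was -0.09. In control 5, which also held much epithelial RNA, 12 of 66 with a median of at least 1 CPM in the other 5 libraries were under 10% of that median, against 26 of 35 members and 183 of 15424 genes in all. In control 5 the median was 60.4% for these lists and 1.68% for the members. The 5 with the highest mean were Aldoa, Mef2a, Mef2c, Mef2d and Fhl1. Among these Fhl1, a LIM protein rich in muscle, followed the level of muscle RNA in part, with 42.8, 64.7 and 156 CPM in case 5, 6 and 9, against 32.3, 82.5 and 92.9 CPM in control 5, 6 and 10. Mef2a, a transcription factor used in muscle and in other tissues, was highest in the libraries poorest in muscle RNA, with 191, 104 and 111 CPM in case 5, 6 and 9, against 182, 142 and 110.4 CPM in control 5, 6 and 10. By smallest p the 5 were Dysf (log2 fold change -0.32), Jph2 (-0.48), Pgam2 (-1.21), Gyg1 (0.56) and Dmd (-0.56). Each had an adjusted p of 0.999 in edgeR. Pgam2, the muscle form of a glycolytic mutase and the one with the largest change, had 3.35, 4.71 and 10.1 CPM in case 5, 6 and 9, against 3.22, 18.1 and 20.5 CPM in control 5, 6 and 10.

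The 10 genes whose log2 CPM was most like the members' mean over 6 libraries had Pearson r of 0.986 to 0.998, a description with no test, and 2 of them stood on the further muscle lists. Myom2, an M band protein of the sarcomere, had 1.04, 1.99 and 8.64 CPM in case 5, 6 and 9, against 0, 7.46 and 8.57 CPM in control 5, 6 and 10. Art1, an ADP-ribosyltransferase of muscle, had 0.558, 1.99 and 5.29 CPM in case 5, 6 and 9, against 0, 3.30 and 3.19 CPM in control 5, 6 and 10, and Smtnl1 had 0.877, 1.79 and 6.96 CPM, against 0, 6.21 and 3.83 CPM. The others (Tfg, Ndufa4, Rnf128, Myeov2, Prorsd1, Lsm10 and Anpep) varied far less. Anpep, for one, had 224, 233 and 242 CPM in case 5, 6 and 9, against 197, 249 and 248 CPM in control 5, 6 and 10, so that a high correlation over 6 libraries did not mark muscle genes alone.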
